A study of Mus musculus with 6 samples.

Results

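The Notch genes of sorted mouse basal keratinocytes were examined as a set of 10, chosen by symbol: the receptors Notch1, Notch2 and Notch3, the ligands Jag1, Jag2 and Dll1, the feedback targets Hes1, Hey1 and Nrarp, and the sugar-transferring enzyme Lfng. All 10 were found among the 24972 entries of the deposited table, and all 10 were among the 12239 genes that were tested because they averaged 10 or more normalized counts. The libraries, 3 from Piezo1 cKO mice and 3 from control mice, were made from poly(A) RNA of basal epidermal cells that had been isolated from back skin by flow sorting. Every animal of both groups carried p63CreER, a floxed Piezo1 gene (Piezo1fl/fl) and the membrane-colour reporter R26-mTmG. The cKO mice were injected with tamoxifen 3 times (20 ug each) from postnatal day 45 to 52, which activates Cre in p63-expressing basal keratinocytes, and the control mice received vehicle. Tamoxifen exposure and Piezo1 deletion therefore cannot be told apart. The age at collection is not given in the labels.

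Notch signalling passes between touching cells. A Jagged or Delta ligand on one cell pulls on a Notch receptor of its neighbour, the receptor is cut by proteases, and its intracellular part enters the nucleus, where it joins the DNA-binding protein RBPJ and a Mastermind coactivator to turn on genes such as those of the Hes and Hey repressors. In the epidermis the pathway promotes the move of keratinocytes out of the basal layer into the spinous layer. Feedback targets are genes that the pathway turns on and that in turn dampen it: Hes1 and Hey1 repress transcription, Hes1 that of its own gene too, and Nrarp binds the nuclear Notch complex and favours the loss of the active receptor fragment. Lfng, lunatic fringe, adds sugar to Notch receptors and thereby biases them towards Delta ligands.

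In these cells the feedback target Nrarp was higher and the ligand Dll1 lower in cKO, each with groups that did not overlap and an unadjusted p under 0.05, while no member passed adjustment over all genes. That p rests on the settings, as it stayed under 0.05 in 13 of 16 alternatives run for Nrarp and in 8 of 16 for Dll1. Hes1 was also higher on average in cKO, with groups that overlapped, and its unadjusted p was under 0.05 in 7 of 16 alternatives. The alternatives reuse the same libraries, and several barely change the fit, so these counts are not separate checks. The receptors, Jag1, Jag2 and Lfng differed little between the groups relative to the spread of the libraries. By limma, 0 of the 10 members had a Benjamini-Hochberg adjusted p under 0.05, against 0% of all genes tested (0 genes). At an unadjusted p under 0.05 there was 1 member higher in cKO and 1 lower, against 1.47% and 3.46% of all genes tested (4.93% in all). Groups without overlap were found for 1 member on the higher side and 1 on the lower side, against 5.16% and 5.7% of genes (10.9% in all). The members' median log2 fold change of -0.03 equalled that of all genes tested, also -0.03.

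The stretch upstream of the start site is given for 3 members: Nrarp and Dll1, whose groups did not overlap, and Lfng, which held most of the searched motifs. The sequences are from RefSeq (GRCm38.p6), 250 bases ending at the base before the RefSeq start site. For Dll1, of 2 RefSeq start sites the one nearer to the GENCODE start was taken. Each is written 5′ to 3′ on the strand of the gene, with capitals at matches to TGGGAA or its reverse complement TTCCCA, the core bound by RBPJ, and to CACGTG, an E-box that reads the same on both strands.
Nrarp, chr2:25180508-25180757, plus strand: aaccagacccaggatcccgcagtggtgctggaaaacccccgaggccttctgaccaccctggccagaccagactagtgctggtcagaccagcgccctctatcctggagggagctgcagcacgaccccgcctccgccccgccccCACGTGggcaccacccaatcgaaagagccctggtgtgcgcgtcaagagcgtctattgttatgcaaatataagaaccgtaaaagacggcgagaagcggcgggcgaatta
Lfng, chr5:140607091-140607340, plus strand: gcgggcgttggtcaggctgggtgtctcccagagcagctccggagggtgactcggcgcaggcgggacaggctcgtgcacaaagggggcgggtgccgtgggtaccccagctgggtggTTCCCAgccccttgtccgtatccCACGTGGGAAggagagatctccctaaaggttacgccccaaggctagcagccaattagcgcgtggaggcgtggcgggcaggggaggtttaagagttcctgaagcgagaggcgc
Dll1, chr17:15376933-15377182, minus strand: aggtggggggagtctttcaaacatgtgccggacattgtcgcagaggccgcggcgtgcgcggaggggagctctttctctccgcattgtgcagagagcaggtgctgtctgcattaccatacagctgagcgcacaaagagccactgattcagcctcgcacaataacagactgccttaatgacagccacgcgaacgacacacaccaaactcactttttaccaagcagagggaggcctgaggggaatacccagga
Such windows were found for 8 of the 10 members, and none is printed for Hes1 and Hey1. Among the 8, the RBPJ core was found upstream of 1, Lfng, which held it on each strand once, and over 32851 windows of the same length it was found in 21.6%. The E-box was found upstream of 2, Nrarp and Lfng, and in 6.02% of all windows. In Lfng the E-box and the RBPJ core on the plus strand share 2 bases, so that they form 1 run of capitals. The Dll1 window shown held neither string. A match is a string of letters and was not tested as a binding site.

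Depth differed between libraries and bears on every value. The worth of 1 read, taken from the smallest recurring step in each column, gave approximate depths of 1.05, 15.6 and 14.2 M reads in cKO replicates 1, 2 and 3 and 20.8 to 24.5 M reads in the controls. In cKO replicate 1, 3 reads came to 36.7 normalized counts, and 15.2% of the tested genes lay under 3 reads, against 0.270% to 0.490% in the other libraries. Piezo1 itself gave 380, 565 and 399 normalized counts in cKO replicates 1, 2 and 3 and 806, 1098 and 1476 in control replicates 1, 2 and 3. Its log2 fold change was -1.31 (SE 0.27, limma, adjusted p = 0.744), and all 3 cKO libraries lay below all 3 controls. Its exons share 4016 bases with those of Ctu2 on the opposite strand. The female transcript Xist was abundant in cKO replicates 1 and 2 and control replicate 1, and the Y-linked Ddx3y in cKO replicate 3 and control replicates 2 and 3, so the groups were not balanced for sex. The labels do not state whether each sample is a separate animal, and p-values here reflect sample-to-sample spread that may be partly technical.

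Levels of different members were compared per kilobase of annotated exon, in normalized counts per kb, as group means ± SD (n = 3 each). The length merges the exons of every annotated transcript of a gene (14232 bases for Notch1). It therefore lowers genes with many alternative exons, and the order below rests on it. In cKO, Hes1 came first at 789 ± 373 normalized counts per kb, followed by Jag2 at 624 ± 115, Notch1 at 360 ± 40.9, Jag1 at 269 ± 79.5 and Nrarp at 238 ± 57.7. Next in cKO came Dll1 at 215 ± 68.3, Notch2 at 153 ± 40.4, Notch3 at 132 ± 46.4, Lfng at 126 ± 29.5 and Hey1 at 8.31 ± 4.73 normalized counts per kb. In controls, Jag2 came first at 691 ± 107, followed by Hes1 at 434 ± 105, Notch1 at 366 ± 109, Dll1 at 359 ± 88.0 and Jag1 at 274 ± 18.9. Below them in controls stood Notch2 at 177 ± 59.6, Nrarp at 148 ± 15.2, Lfng at 133 ± 29.5, Notch3 at 112 ± 28.5 and Hey1 at 6.06 ± 1.71 normalized counts per kb.

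Jag2 was thus the most abundant ligand and Notch1 the most abundant receptor per kilobase in both groups, and Hey1 was far below all other members. Between neighbours in the cKO order the libraries overlapped, except from Jag2 to Notch1 and from Lfng to Hey1. Between neighbours in the control order they overlapped, except from Jag2 to Hes1, from Jag1 to Notch2 and from Notch3 to Hey1. Dll1 stood below Jag1 and Nrarp in cKO and above both in controls, with ranges that overlapped that of Jag1 in both groups.

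**Figure D1:**
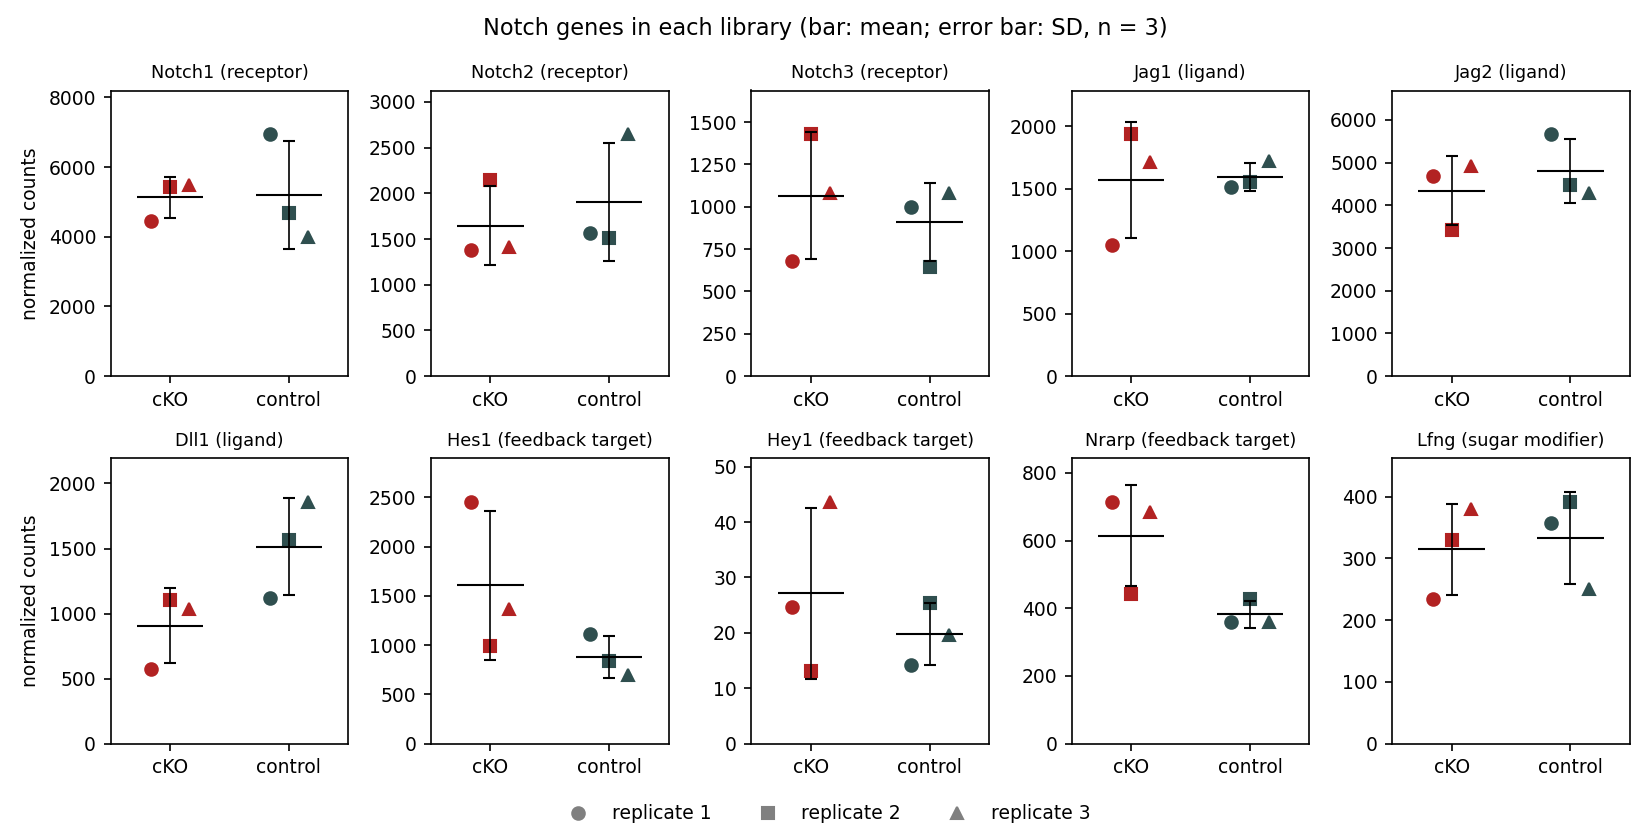
Normalized counts of the 10 Notch genes (y axis, linear, from 0) in the 3 cKO and 3 control libraries (x axis); symbols mark the replicate, the horizontal line is the mean and the error bar the SD (n = 3 each). Nrarp (443 to 715 in cKO, 359 to 427 in controls) and Dll1 (576 to 1108 in cKO, 1123 to 1861 in controls) are the members whose groups do not overlap.

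Among the receptors, Notch1, the receptor through which Notch restrains growth and promotes differentiation in mouse epidermis, was at 4459, 5434 and 5498 normalized counts in cKO replicates 1, 2 and 3, against 6949, 4683 and 3982 in control replicates 1, 2 and 3. The cKO libraries all lay within the range of the controls. The log2 fold change of 0.01 (SE 0.25) had a 95% interval of -0.56 to 0.59, so a level up to 1.51-fold higher or 1.48-fold lower in cKO lies within its error. The opposite strand carries the transcript 0610009E02Rik, whose exons share 1226 bases with those of Notch1. The use of strand in counting is not given in the sources used here, and that gene stood at 24.2 to 49.3 normalized counts in cKO and 30.2 to 60.9 in controls.

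Notch2, a receptor with overlapping roles in skin, was at 1379, 2150 and 1413 normalized counts in cKO replicates 1, 2 and 3, against 1565, 1508 and 2649 in control replicates 1, 2 and 3. The groups overlapped, with control replicate 3 the highest library and cKO replicate 1 the lowest, and the log2 fold change was -0.19 (SE 0.28, limma, adjusted p = 0.807). It was 0.069 without control replicate 3. Notch3, itself a gene that other Notch receptors turn on, was at 680, 1429 and 1084 normalized counts in cKO replicates 1, 2 and 3, against 998, 647 and 1081 in control replicates 1, 2 and 3. The highest value and a value near the lowest were both in cKO, and the log2 fold change of 0.20 (SE 0.32, limma, adjusted p = 0.822) was smaller than its error. Its sign turned without cKO replicate 2 (-0.047) and without control replicate 2 (-0.029). Gm42820 on the same strand shares 541 exon bases with Notch2, and the antisense gene Gm17276 shares 628 with Notch3, and neither is under that name in the table.

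Among the ligands, Dll1, a Delta ligand that in human epidermis is high in clusters of stem cells, lies on chromosome 17 at 15367354 to 15376872 on the minus strand (GRCm38, ENSMUSG00000014773.13). It was at 576, 1108 and 1035 normalized counts in cKO replicates 1, 2 and 3. The control libraries gave 1123, 1562 and 1861 in replicates 1, 2 and 3. All cKO libraries lay below all controls, though cKO replicate 2 and control replicate 1 were close. The mean was 906 ± 288 in cKO and 1515 ± 371 in controls (SD, n = 3 each), and the log2 fold change of -0.77 (SE 0.30) had a 95% interval of -1.47 to -0.06. That is 1.70-fold lower in cKO (1.04 to 2.78). In limma the p was 0.0366 and the adjusted p 0.744, and an exact permutation of the libraries (two-sided) gave 0.1, the lowest p possible with 3 against 3. Without cKO replicate 1, the shallow library, the log2 fold change was -0.47 (limma, adjusted p = 0.849), and without control replicate 3 it was -0.60 (adjusted p = 0.977). A930024N18Rik, a noncoding gene on the opposite strand that is not under that name in the table, shares 867 exon bases with Dll1.

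The Jagged ligands gave no such separation. Jag1 was at 1047, 1936 and 1716 normalized counts in cKO replicates 1, 2 and 3, against 1509, 1556 and 1719 in control replicates 1, 2 and 3. The controls were tight, and cKO libraries lay on both sides of them. The log2 fold change of -0.07 (SE 0.25) had a 95% interval of -0.65 to 0.51, and without cKO replicate 1, its lowest library, it was 0.20 (SE 0.15). Jag2, the most abundant ligand, was at 4683, 3429 and 4925 normalized counts in cKO replicates 1, 2 and 3, against 5669, 4479 and 4289 in control replicates 1, 2 and 3. Its groups overlapped (log2 fold change -0.15, SE 0.22, 95% interval -0.67 to 0.36), with cKO replicate 2 the lowest library and control replicate 1 the highest. The difference between Dll1 and the Jagged genes in their response was not tested.

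Among the feedback targets, Nrarp lies on chromosome 2 at 25180758 to 25183339 on the plus strand (GRCm38, ENSMUSG00000078202.3), just downstream of the stretch printed above. It was at 715, 443 and 683 normalized counts in cKO replicates 1, 2 and 3, against 359, 427 and 359 in control replicates 1, 2 and 3. All cKO libraries lay above all controls, cKO replicate 2 by a narrow margin over control replicate 2. The mean was 614 ± 149 in cKO and 382 ± 39.1 in controls (SD, n = 3 each), and the log2 fold change of 0.66 (SE 0.23) had a 95% interval of 0.12 to 1.20, which is 1.58-fold higher in cKO (1.08 to 2.29). In limma the p was 0.0235 and the adjusted p 0.744, and the exact permutation of the libraries again gave 0.1. Leaving out single libraries gave log2 fold changes of 0.53 to 0.88, lowest without cKO replicate 1 and highest without cKO replicate 2, and the limma adjusted p was 0.378 to 0.977. The antisense gene Gm38287, not under that name in the table, shares 2051 exon bases with Nrarp, so reads of the opposite strand could not be told apart if strand was not used.

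Hes1, the Hes-family repressor best known from epidermis (chromosome 16, 30064384 to 30067796, plus strand, GRCm38, ENSMUSG00000022528.8), was at 2457, 996 and 1368 normalized counts in cKO replicates 1, 2 and 3, against 1118, 834 and 699 in control replicates 1, 2 and 3. The groups overlapped, since cKO replicate 2 lay below control replicate 1, and the shallow cKO replicate 1 was the highest by a wide margin. The mean was 1607 ± 759 in cKO and 884 ± 214 in controls (SD, n = 3 each), and the log2 fold change of 0.79 (SE 0.34) had a 95% interval of -0.01 to 1.58 (limma, adjusted p = 0.744). Without cKO replicate 1 it was 0.43 (SE 0.24, limma, adjusted p = 0.849), and without cKO replicate 2 it was 1.08 (SE 0.31, adjusted p = 0.378). Hey1, a related repressor that uses the same partner family, was the least abundant member at 24.6, 13.1 and 43.7 normalized counts in cKO replicates 1, 2 and 3, against 14.2, 25.4 and 19.6 in control replicates 1, 2 and 3. The value in cKO replicate 1 amounts to about 2.01 reads, under the 3 reads taken as the floor, whereas the other libraries held about 18.3 to 57.5 reads. The log2 fold change of 0.32 had an SE of 0.64 and turned to -0.092 without cKO replicate 3. Without the shallow cKO replicate 1 it was 0.31 (SE 0.59), so the error was about as wide among the deeper libraries.

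Lfng, whose upstream stretch is printed above, was at 235, 329 and 381 normalized counts in cKO replicates 1, 2 and 3, against 358, 392 and 250 in control replicates 1, 2 and 3. The lowest library of each group lay close to that of the other, and the log2 fold change of -0.08 (SE 0.27) had a 95% interval of -0.71 to 0.54. In cKO replicate 1 the value stood for about 19.2 reads.

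**Figure D2:**
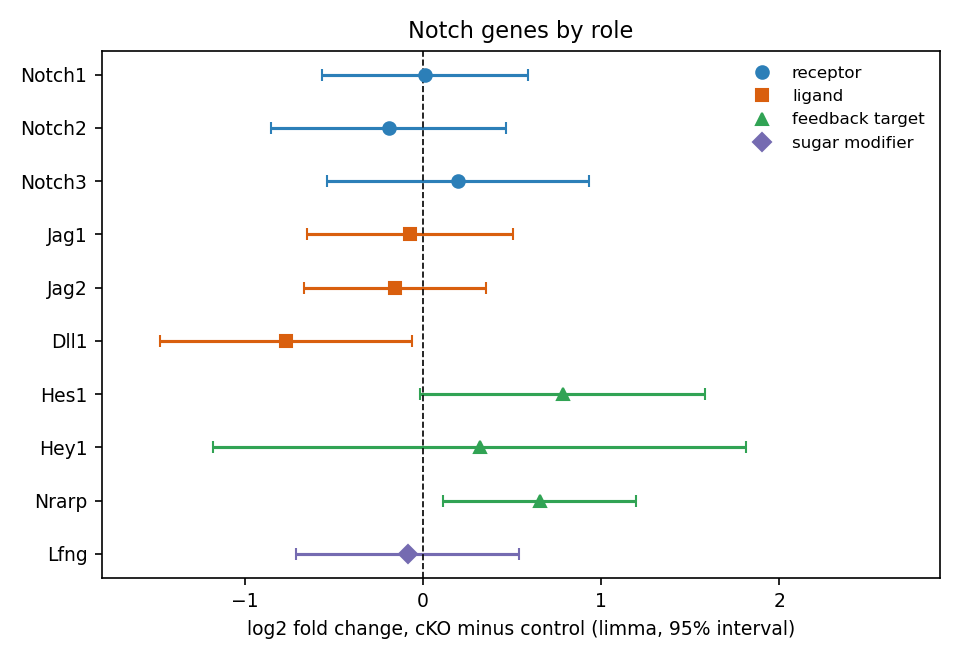
Log2 fold changes of the 10 Notch genes, cKO minus control, from limma (x axis) with 95% intervals, grouped and coloured by role (y axis). The interval of Dll1 lies below 0 (-1.47 to -0.06) and that of Nrarp above 0 (0.12 to 1.20), that of Hes1 reaches just below 0 (-0.01), and those of the other 7 members span 0.

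Ligands and feedback targets were set against each other within each library, as the mean log2(normalized counts + 1) of Jag1, Jag2 and Dll1 minus that of Hes1, Hey1 and Nrarp. This difference was 1.99, 3.40 and 2.57 in cKO replicates 1, 2 and 3, against 3.54, 3.39 and 3.79 in control replicates 1, 2 and 3. The lowest were cKO replicates 1 and 3, whereas cKO replicate 2 lay within the control range. The mean was 2.65 ± 0.71 in cKO and 3.57 ± 0.20 in controls (SD, n = 3 each), a difference of -0.92 on the log2 scale. Without cKO replicate 1 it was -0.59, and without cKO replicate 2 it was -1.29. Hey1 weighs as much here as Hes1 or Nrarp, though it stood at about 2.01 reads in cKO replicate 1. It was lowest in cKO replicate 2 (13.1 normalized counts), which raises the value of that library. With Hey1 left out of the targets, the group difference was -1.05. With all 3 targets, the target side differed by 0.59 and the ligand side by -0.33 on the same scale. As a score over members chosen with results of these data known, it carries no p-value.

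The summed normalized counts of the same members pointed the same way, which restates the same values and is not separate support. The 3 ligands together stood at 1.97, 4.46 and 3.66 times the 3 targets in cKO replicates 1, 2 and 3, and at 5.57, 5.90 and 7.30 times in control replicates 1, 2 and 3. On this linear scale, where Jag2 and Hes1 carry most of the weight, the groups did not overlap, unlike on the log2 scale. The sum of the targets was 3197, 1451 and 2095 normalized counts in cKO replicates 1, 2 and 3, and 1491, 1287 and 1078 in control replicates 1, 2 and 3. Here cKO replicate 2 again lay within the range of the controls. These sums are not corrected for transcript length, so the ratio compares libraries and not the amounts of ligand and target transcripts.

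**Figure D3:**
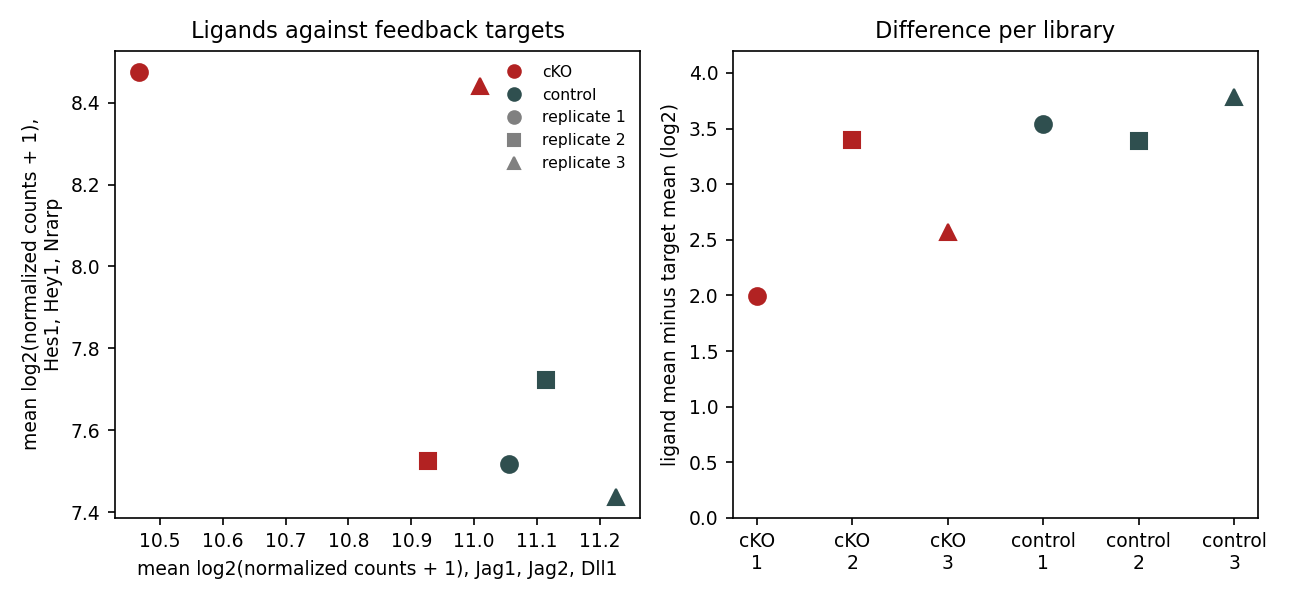
Left, mean log2(normalized counts + 1) of the ligands (x axis) and of the feedback targets (y axis) in each library; right, the ligand mean minus the target mean (y axis, log2) for each library (x axis), cKO left of control. The cKO libraries sit at 1.99, 3.40 and 2.57 and the controls at 3.54, 3.39 and 3.79.

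The members also varied within each group. Relative to the control mean of each gene, on the log2(normalized counts + 1) scale, cKO replicate 1 gave the widest departures, with Hes1 at 1.50, Nrarp at 0.91 and Dll1 at -1.36. In cKO replicate 3, Hes1 was at 0.66, Nrarp at 0.84, Hey1 at 1.14 and Dll1 at -0.52. In cKO replicate 2 the departures of Hes1 and Nrarp were small, 0.20 and 0.22, Dll1 was at -0.42, and the largest was that of Notch3 at 0.69. Among the controls, replicate 1 held the highest Notch1 (0.46), Jag2 (0.25) and Hes1 (0.37) and the lowest Dll1 (-0.40), and replicate 3 the lowest Notch1 (-0.35), Jag2 (-0.15) and Hes1 (-0.31) and the highest Dll1 (0.33). So a high Hes1 beside a low Dll1 was also seen between control libraries. Their spread, -0.31 to 0.37 for Hes1 and -0.40 to 0.33 for Dll1, was nearly as wide as the group differences of 0.79 and -0.77.

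**Figure D4:**
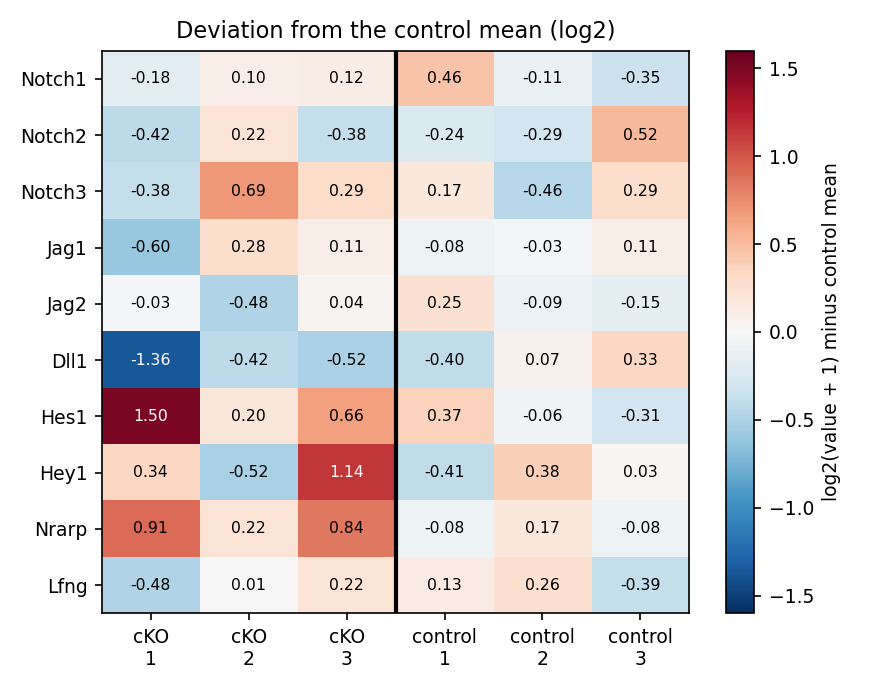
Deviation of each Notch gene (rows) in each library (columns, cKO left of control) from the mean of the 3 control libraries, on the log2(normalized counts + 1) scale, red for higher and blue for lower. The extremes are Hes1 at 1.50 and Dll1 at -1.36, both in cKO replicate 1.

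Because sex was not balanced, values were also compared within libraries of the same sex, a comparison chosen after seeing the data. Nrarp was higher in cKO by 0.65 (log2) in the Xist-expressing libraries, 2 cKO against 1 control, and by 0.80 in those with Ddx3y, 1 cKO against 2 controls. Dll1 differed by -0.49 and -0.72 in the same order, and Hes1 by 0.48 and 0.84. With sex as a term in limma, the log2 fold change was 0.72 for Nrarp (SE 0.26), -0.61 for Dll1 (SE 0.29) and 0.66 for Hes1 (SE 0.37), each with an adjusted p of 0.953. Notch1 differed by -0.50 in the Xist-expressing libraries and by 0.35 in the others, and Jag2 by -0.50 and 0.17, so their directions were not shared between these sets. The only Xist-expressing control, replicate 1, held the highest Notch1 and Jag2 of all libraries. Sex and that single library therefore cannot be told apart here.

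Marker genes of other cell types were read beside these results as summed normalized counts, and fewer cells of a type and less RNA per cell cannot be told apart in bulk RNA. The basal markers Krt5, Krt14, Trp63, Itga6, Itgb4 and Col17a1 summed to 428407 to 545916 in cKO and 450847 to 486467 in controls, with 3 of 6 higher and 3 lower. Suprabasal markers, 9 matched of 10, summed to 116221 to 132004 in cKO and 67237 to 145144 in controls, with 5 higher and 4 lower. The early suprabasal keratin Krt1 had a log2 fold change of 0.99, and the most abundant marker, Krt10, of 0.40, neither with an adjusted p under 0.05 in limma. The 4 lower were Lor at -1.84, Ivl at -0.19, Dsg1a at -0.12 and Sbsn at -0.07. Lor stood at 479, 139 and 272 normalized counts in cKO replicates 1, 2 and 3. Its control values were 169, 1336 and 3680 in replicates 1, 2 and 3. Of the controls, replicate 1, with the lowest Dll1 and the highest Hes1, had the lowest suprabasal sum, and replicate 3 the highest.

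T cell markers summed to 299 to 871 normalized counts in cKO and 72.7 to 123 in controls, with 5 of 6 higher. Of the most abundant, Cd7 gave a log2 fold change of 2.63, and Ptprc, CD45, gave -0.06 and was listed at 0 in cKO replicate 1. Ptprc stood at 92.9 and 263 normalized counts in cKO replicates 2 and 3, against 27.6 to 30.6 in controls. Its log2 fold change therefore rests on the 0 in the shallow library. Langerhans or myeloid markers summed to 2240 to 10626 in cKO and 1382 to 1809 in controls, with all 5 tested higher, Cd74 by 1.31 and H2-Aa by 1.16 (log2). In cKO replicates 1, 2 and 3 the T cell sums were 434, 299 and 871, and the Langerhans or myeloid sums 2789, 2240 and 10626. Both were lowest in replicate 2, where Nrarp and Hes1 were also lowest among the cKO libraries. Both were highest in replicate 3, whereas Nrarp and Hes1 were highest in replicate 1. Hair follicle markers, led by Krt17 and Krt79, summed to 12377 to 19679 in cKO and 9169 to 13410 in controls, with 4 of 6 higher. Sebocyte markers, led by Scd1 and Fasn, summed to 6547 to 9248 in cKO and 8776 to 14308 in controls, with all 5 lower. Low sums were found for endothelial (10.9 to 24.8 in cKO, 6.71 to 9.98 in controls), fibroblast (20.8 to 43.4 in cKO, 15.9 to 31.3 in controls), melanocyte (12.3 to 75.9 in cKO, 18.8 to 21.6 in controls) and muscle or mural markers (34.1 to 48.7 in cKO, 26.5 to 32.7 in controls). The most abundant of these were Pecam1 and Cdh5, Col1a2 and Col1a1, Dct and Pmel, and Acta2 and Tagln, and the endothelial markers Tek and Emcn were listed at 0 in 4 of 6 libraries each. In the shallow cKO replicate 1 each of these sums was 1 marker alone, Cdh5 (24.8), Lum (24.5), Dct (12.3) and Acta2 (35.1). All lay under 3 reads there (36.7 normalized counts). The part of the immune, follicle and sebocyte signals in the Notch results was not tested.

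The rest of the pathway was read from a list of 57 further genes, of which 44 were tested, 11 lay below the filter and 2, Dlk1 and Dner, were at 0 in every library. Of the 44, 20 were higher and 24 lower in cKO, with a median log2 fold change of -0.04 against -0.03 over all genes tested. By limma, 0 passed an adjusted p of 0.05, and at an unadjusted p under 0.05 there were 2 higher and 1 lower, against 1.47% and 3.46% of all genes. Groups did not overlap for 2 genes on the higher side and 1 on the lower side, against 5.16% and 5.7%. They were Rfng and Poglut1 above and Dtx3, a Deltex-family gene, below. The 3 at an unadjusted p under 0.05 were Maml1, Rfng and Dtx3l. Of the genes listed under targets, 4 were tested, 2 of them higher and 2 lower. Whether each is turned on by Notch in these cells was not tested. Cdkn1a, the cell cycle inhibitor p21 and a target of Notch1 in mouse keratinocytes, was at 5705, 6544 and 4585 normalized counts in cKO replicates 1, 2 and 3, against 6501, 7713 and 9248 in control replicates 1, 2 and 3. Its groups overlapped, and the log2 fold change was -0.48 (SE 0.23, limma, adjusted p = 0.744). Myc, a growth-promoting transcription factor, gave -0.43 (SE 0.26). On the higher side were Hes6, a Hes-family gene, at 0.67 (SE 0.52) and Ccnd1, cyclin D1, at 0.23 (SE 0.27).

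Of the 3 further sugar modifiers tested, 2 were higher and 1 lower in cKO, beside Lfng at -0.08 (log2). Rfng, radical fringe, which extends the sugar on Notch as Lfng does, was at 405, 359 and 334 normalized counts in cKO replicates 1, 2 and 3, against 285, 237 and 274 in control replicates 1, 2 and 3. Its groups did not overlap, with a log2 fold change of 0.46 (SE 0.19, limma, adjusted p = 0.744). Poglut1, which adds glucose to the receptor, was likewise without overlap (0.38, SE 0.21). Mfng, the third fringe gene, lay below the filter at a mean of 2.48 normalized counts in cKO and 7.91 in controls, and Pofut1, which adds the first fucose, gave a log2 fold change of -0.05.

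In the nuclear complex, 7 of the 14 genes were higher and 7 lower. The Mastermind coactivator Maml1 was lower in cKO (-0.65, SE 0.27) and Maml2 higher (0.68, SE 0.35), while Rbpj itself gave -0.26 (SE 0.19), all with overlapping groups. Among inhibitors and turnover genes, 3 of 9 were higher. They included Dtx3l, a ubiquitin ligase of the Deltex family that is also induced by interferon (0.96, SE 0.39), while the adaptor Numbl gave -2.36 (SE 1.42) and was listed at 0 in cKO replicate 1. Genes that process receptors and ligands were 5 higher and 7 lower, with Furin, which cleaves the maturing receptor, at -0.46 (SE 0.25) and the gamma-secretase subunit Psenen at 0.41 (SE 0.33). Among the remaining ligand genes, Dlk2 gave 0.37 (SE 0.33) and Cntn1 -0.68 (SE 1.52), and Cntn1 was listed at 0 in cKO replicate 1. Notch4 and Dll4, which are known from blood vessels, averaged 0.249 and 3.96 normalized counts in cKO and 2.38 and 3.51 in controls.

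**Figure D5:**
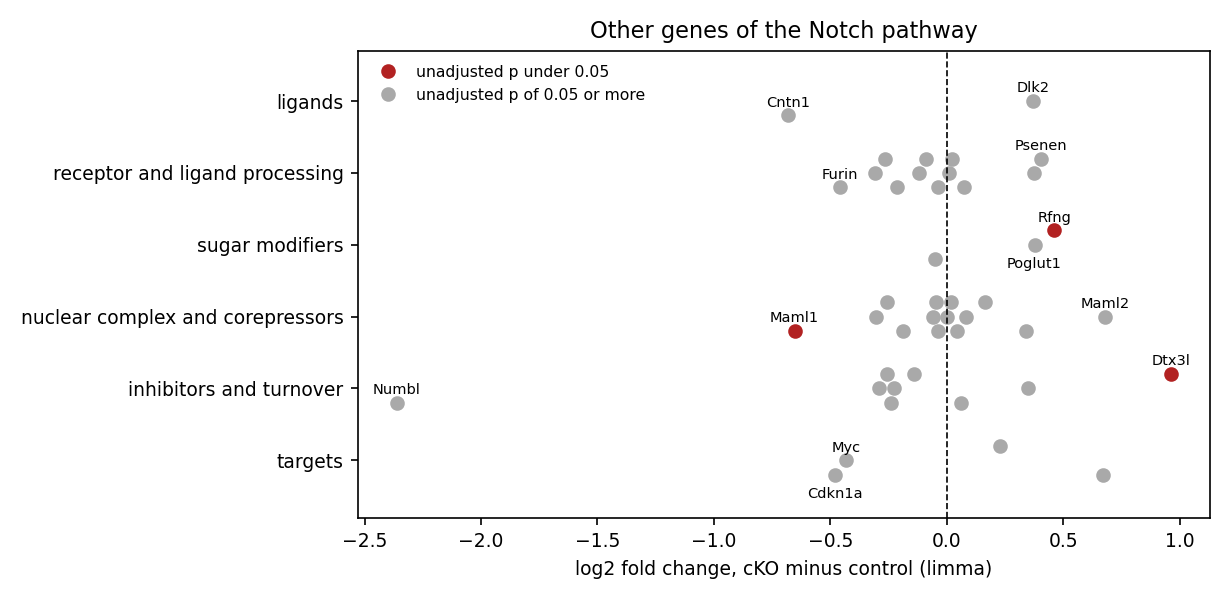
Log2 fold changes, cKO minus control (x axis, limma), of the 44 tested genes of the wider Notch pathway list, by role (y axis); red points have an unadjusted p under 0.05 and names mark the 2 genes of smallest p per role. Points lie on both sides of 0, with Maml1 at -0.65 and Dtx3l at 0.96 among the red ones.

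For each member, the gene with the most similar course over the 6 libraries was sought among tested genes averaging at least 50 normalized counts. Symbols of Gm plus digits, ending in Rik, starting with a digit or occurring more than once were left out. The nearest gene was that with the smallest root mean square difference between centred log2(normalized counts + 1) values. For Dll1 it was Rap1b (0.045), for Hes1 Psmg3 (0.075) and for Nrarp Fzd1 (0.10), a receptor of Wnt ligands. For Jag1 it was Atl3 (0.019), for Jag2 Cib1 (0.10), for Notch1 Tbl2 (0.071), for Notch2 Ctnnd1 (0.11) and for Notch3 Plekha6 (0.13). For Lfng it was Arsb (0.056) and for Hey1 Ldhb (0.15). Among the members themselves, Notch1 and Lfng (0.24), Jag1 and Notch3 (0.26) and Hes1 and Nrarp (0.33) were each other's nearest. The nearest to Dll1 was Jag1 (0.39). With so many candidate genes and 6 libraries, close matches are plentiful, and these are descriptions.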

How the data were processed

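RNA-seq libraries of sorted basal epidermal cells, 3 cKO and 3 control, were grouped by sample title. STAR, DESeq2 and GRCm38 are named in the submitters' processing notes, without versions; counting program, annotation, strand use and filters are not given in the sources used. The authors deposited 1 table of normalized counts (a scaled signal, not whole reads). Within a library the worth of 1 read varied slightly by gene, so reads given here are approximate. Genes averaging 10 or more normalized counts were tested as log2(value + 1) by limma 3.58.1 under R 4.3.3 (trend, robust with statmod 1.5.0, two-sided), with Benjamini-Hochberg adjustment over 12239 genes at 0.05. Adding 1 understates changes at low values. A 0 in the shallow cKO replicate 1 can instead exaggerate or turn a change. Cntn1, for instance, averaged 36.5 in cKO and 22.8 in controls but had a log2 fold change of -0.68. The fit was also run on simulated counts with 1 fixed spread setting for all genes and no differences in sex or cell make-up. It therefore does not show how the fit performs on these libraries. An approximate read is a value divided by the smallest recurring step of its library, and the floor of 3 reads covers counting error only. Exon lengths and positions came from GENCODE M21 (GRCm38).

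The members, the wider pathway list and the cell type marker lists were chosen with earlier results of these data known. Named genes are the members, Piezo1, the 2 genes of smallest p per role of the wider list, the nearest profile per member and the 2 most abundant markers of a cell type. Rbpj, Pofut1, Mfng, Notch4, Dll4, Dtx3, Hes6, Ccnd1, Tek, Emcn, Lor, Ivl, Dsg1a, Sbsn and Lum were named after their values were seen. A gene of the wider list is not reported here, and the list's counts leave it out. Alternatives were other filters, pseudocounts and scalings, limma-voom on approximate reads (with library totals; TMM factors were not run), a replicate block, sex as a term and leaving out each library.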

Additional observations from a re-analysis of the deposited data

How the results depend on the processing

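No member passed an adjusted p of 0.05 under any alternative run, and the count of all genes that did was 0 to 1 when single libraries were left out (1 without cKO replicate 2, Amd1) and 0 otherwise. Dll1 kept its sign in every alternative (-0.97 to -0.47), as did Hes1 (0.43 to 1.08) and Nrarp (0.53 to 0.88), and the ligand minus target difference (-1.29 to -0.59). Leaving out single libraries turned the sign of the remaining members, with ranges of -0.16 to 0.24 for Notch1, -0.40 to 0.069 for Notch2, -0.047 to 0.49 for Notch3, -0.25 to 0.20 for Jag1, -0.25 to 0.0081 for Jag2, -0.092 to 0.74 for Hey1 and -0.28 to 0.11 for Lfng. Jag1 also turned with quantile normalization (0.069) and limma-voom (0.12), Lfng with limma-voom (0.16) and Notch1 with sex as a term (-0.074). The median of the wider list was 0.077 with quantile normalization and 0.064 with limma-voom, which moved the median of all genes to 0.10, and the cause was not tested. With limma, members at an unadjusted p under 0.05 numbered 0 to 3 with single libraries left out, 0 without control replicate 3. All genes at an unadjusted p under 0.05 numbered 603, and 284 with sex as a term, and from 169 (without control replicate 3) to 1576 (without cKO replicate 2) when single libraries were left out. Same-numbered libraries correlated in their deviations at 0.095, -0.154 and 0.069, so the numbers were not taken as pairs; with a replicate block the SE was 0.21 for Dll1, 0.24 for Hes1 and 0.27 for Nrarp, with log2 fold changes of -0.77, 0.79 and 0.66, and 0 genes passed. The unadjusted p of Dll1 was 0.05 or more with equal totals, quantile normalization, limma-voom, no trend and sex as a term, and that of Hes1 was under 0.05 with the first 3 of these (log2 fold changes of -0.72, -0.66 and -0.50 for Dll1, 0.83, 0.88 and 0.71 for Hes1). Hey1 has no value with the filter at a mean of 50. Depth puts 15.2% of tested genes under 3 reads in cKO replicate 1.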

Other observations

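The ratio of Dll1 to Hes1, each in normalized counts, was 0.235, 1.11 and 0.757 in cKO replicates 1, 2 and 3 and 1.005, 1.87 and 2.66 in control replicates 1, 2 and 3. The ratio in cKO replicate 2 thus lay above that in control replicate 1. The ratio of Dll1 to Nrarp was 0.806, 2.50 and 1.51 in cKO replicates 1, 2 and 3 and 3.13, 3.66 and 5.18 in control replicates 1, 2 and 3, and here all cKO libraries lay below all controls. Both pairs were chosen after their values were seen, so the separation carries no test.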
